A study of Zea mays subsp. mays x Zea mays subsp. mexicana with 20 samples.

Results

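The windows described here are all those of W22 chromosomes 6 and 10 in a table of single-nucleotide polymorphisms (SNPs) from homozygous *Tpd1;Tpd2* maize. There were 322 of them, 172 on chromosome 6 and 150 on chromosome 10, among 2127 windows of the 10 chromosomes. Each is 1 Mb wide except the last of a chromosome (602 kb on chromosome 6 and 450 kb on chromosome 10). The chromosomes were chosen by their SNP counts, chromosome 6 for the interval around *Tpd2* and chromosome 10 for a long introgression, so every value below is a description and no test was made. By the sample labels, the table belongs to the lines BC8S3 (8 backcrosses and 3 selfings) and BC5S2 (5 backcrosses and 2 selfings by its title). Leaf DNA from bulked seedlings was sequenced over the whole genome, with 1 library per line. Both lines trace to 1 gamete of a teosinte *mexicana* plant (*Z. mays* ssp. *mexicana*) crossed to the maize inbred W22, and both are homozygous for *Tpd1* and *Tpd2*. A counted SNP is a position called as different from W22 that passed the authors' filters, which included an allele frequency of 1. The table has no W22 control and 1 column, so that no count has a replicate. In the study's plots of each line alone, a broad raised stretch in the middle of chromosome 6 is drawn for BC5S2 and not for BC8S3. The 69 windows from 25000001 to 94000000 of chromosome 6 held at most 5 SNPs each in the deposited table. The counts were therefore not read as a sum over both lines, and are given as the authors' values for the table as a whole. Whether they describe 1 line or sites shared by both cannot be told from the table.

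*Teosinte Pollen Drive* is a toxin and antidote system in which pollen that lacks the antidotes dies. The toxin is a hairpin RNA at *Tpd1* on chromosome 5 from which a Dicer-like enzyme makes 22-nt small interfering RNAs (siRNAs). *Tpd2* is an antidote on another chromosome. The study gives a further antidote, a *mexicana* allele of the Dicer-like gene *Dcl2* that is linked to *Tpd1*. By its account, pollen of *TPD* plants passes on *Tpd1* only together with both antidotes. Each backcross to W22 replaces *mexicana* sequence with W22 sequence, except near a locus for which plants are selected or that drives its own transmission, where linked sequence is carried along until a crossover removes it. Stretches of dense SNPs in a late backcross line thus mark *mexicana* sequence that remained. Besides *Tpd2*, the study places several RNA interference genes in introgressions of these chromosomes. They are *Rgd1*, whose product (SGS3 in *Arabidopsis*) works with RDR6 to make secondary siRNAs, *Rdm1*, a component of RNA-directed DNA methylation in *Arabidopsis*, and the Argonaute genes *Ago1a*, *Ago1b* and *Ago2b*, whose products bind small RNAs. No gene annotation of W22 was used here, so gene content was not read from the windows.

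The table holds no bases, but the study's supplement lists 22-nt siRNA clusters raised in *TPD* pollen with the most abundant RNA of each, and 156 of them lie on the 10 chromosomes. Of these, 30 have their midpoint on chromosomes 6 (21 clusters) and 10 (9 clusters). The sequences shown are those of the 5 clusters in windows of at least 100 SNPs and of 3 outside them. These 3 lie closest outside the *Tpd2* interval and the last interval of chromosome 6. The pollen came from other plants than the SNP counts, heterozygous at *Tpd1* and *Tpd2* and of later backcrosses. Which windows were introgressed in those plants, and which allele made an RNA, was not tested. They are written 5′ to 3′ with the 5′ base in capitals, the base that bears on Argonaute loading in *Arabidopsis*. The supplement gives no strand for them, and its coordinates were taken as W22 from the gene names it lists beside them.
chr6:4375216-4376122 (PIF/Harbinger): Cugucgacuagguaauauccca
chr6:9379528-9380311 (PIF/Harbinger): Cagaacuccgauguugucaaag
chr6:95521850-95522765 (LTR/Copia): Ccgacaauuguagugauauucu
chr6:98616800-98617064 (LTR/Unknown): Ccagaaugacagacuauaacga
chr10:141519202-141520086 (LTR/Unknown): Ucucuagauugcaaauggaucc
chr6:93200094-93200760 (PIF/Harbinger): Augguugggaucguaaucguuu
chr6:100029346-100038454 (CACTA): Accgcacaggacaguacccggagg
chr6:159338701-159340171 (LTR/Copia): Cccucagggacuuuggcuacaa
The first 5 lie in windows of 157, 1401, 3321, 2752 and 3989 SNPs, in the order given, and the other 3 in windows without a SNP. Thus both windows next to the *Tpd2* stretch, and the window just before the last interval of chromosome 6, hold a cluster that the deposited counts place in W22-like sequence. Of the 30 leading RNAs, 26 were 22 nt long, and their 5′ base was C in 19, A in 6, U in 5 and G in 0. The 5 clusters in raised windows were 16.7% of the 30, and raised windows were 14.3% of all windows of the 2 chromosomes, so the clusters lay in raised windows about as often as the windows themselves. The supplement annotates each of these 5 as a transposon. Among the 30, which also include intergenic and hairpin clusters, 12 were of the PIF/Harbinger superfamily of DNA transposons, 2 of these in raised windows. Shares over all 156 clusters were not taken. The counts by annotation and 5′ base are thus not read as particular to the 2 chromosomes. The leading RNA of the cluster at chr6:93200094-93200760 was also that of another cluster in the list, so that its reads cannot be placed at 1 site by sequence alone.

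By SNPs, chromosome 6 had rank 2 and chromosome 10 rank 3 of the 10 chromosomes, after chromosome 5. Chromosome 6 held 60104 SNPs and chromosome 10 held 33537, which were 21.5% (95% Wilson interval 21.3 to 21.6) and 12.0% (11.9 to 12.1) of all SNPs, on 8.09% and 7.04% of the chromosomal length. These intervals cover counting error only, because linked SNPs are not independent. Per Mb of the whole chromosome the count was 350.3 on chromosome 6 and 224.4 on chromosome 10, a ratio of 1.56. Nearly all of this lay in a minority of windows on both. On chromosome 6, 30 windows (17.4%) held at least 1000 SNPs and 33 (19.2%) at least 100. On chromosome 10, 12 windows (8.00%) held at least 1000 and 13 (8.67%) at least 100. Over all 10 chromosomes the shares were 4.65% and 5.36%, so both chromosomes lay above that level, which the choice of the chromosomes fixed. Counts fell into separate ranges: the highest count below 100 was 49 and the lowest above it was 157. Just around the calling count of 1000, the lowest called windows held 1023 and 1026 SNPs and the highest uncalled one held 759. On chromosome 6, 10 windows held 50% or more of the SNPs, against 5 on chromosome 10.

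**Figure D1:**
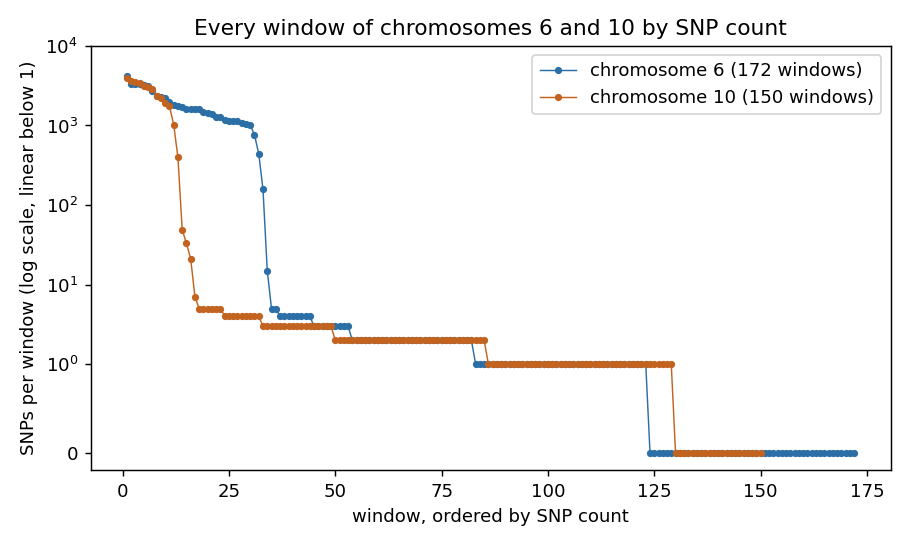
SNPs per window (log scale, linear below 1) for the 172 windows of chromosome 6 and the 150 of chromosome 10, each ordered by count. Both curves drop steeply after the windows of at least 100 SNPs, 33 on chromosome 6 and 13 on chromosome 10.

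Joining called windows across gaps of at most 2 Mb gave 3 intervals on chromosome 6 and 1 on chromosome 10. They covered 31 Mb of chromosome 6 and 12 Mb of chromosome 10, or 18.0% and 8.00% of the windows. Inside them lay 97.4% of the SNPs of chromosome 6 (95% Wilson interval 97.3 to 97.6) and 97.8% of those of chromosome 10 (97.6 to 97.9). The SNPs outside numbered 1538 on chromosome 6 and 739 on chromosome 10. On chromosome 6 most of those lay in the partly raised windows at the interval edges, since windows under 100 SNPs held only 183 SNPs in all. On chromosome 10 they were split more evenly, with 396 in the raised window at the right edge and 343 in windows under 100 SNPs. In the deposited counts the chromosomes thus differed in how introgressed sequence was laid out. On chromosome 6 it was split into 3 pieces separated by 69 and 60 Mb of W22-like windows, and on chromosome 10 it was a single piece. This layout cannot be given for each line, since the study's plot of BC5S2 draws a raised stretch in the middle of chromosome 6.

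**Figure D2:**
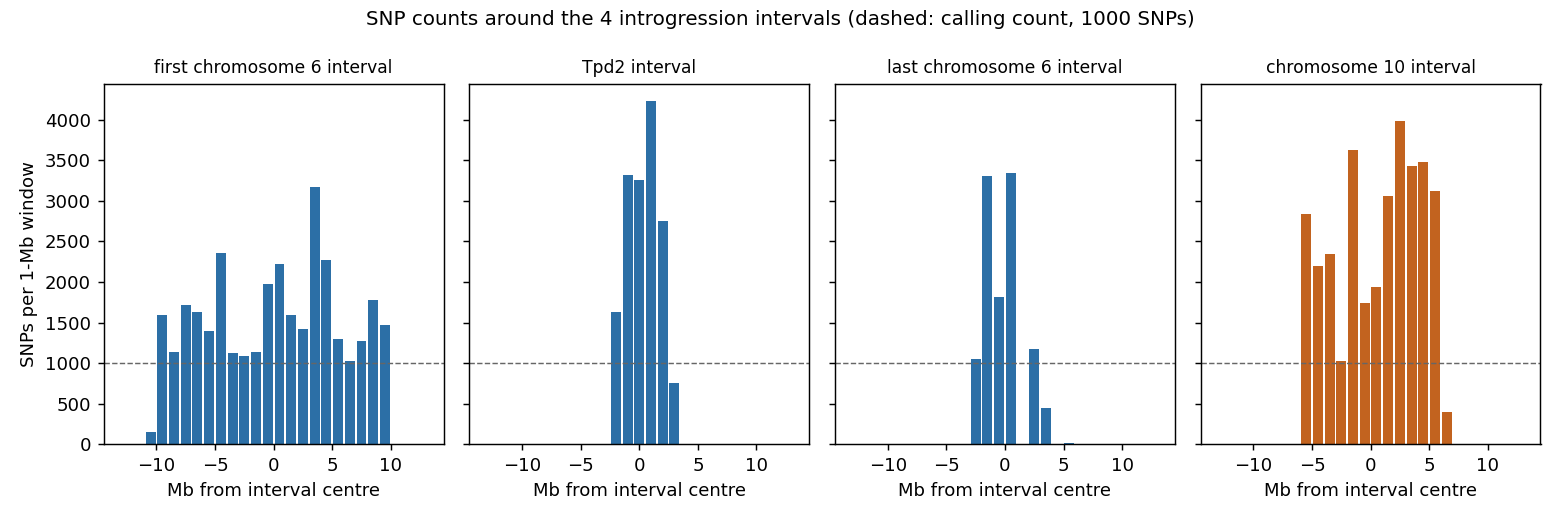
SNPs per 1-Mb window against the distance in Mb from the centre of each interval, for the 3 intervals of chromosome 6 (blue) and the interval of chromosome 10 (orange). The dashed line is the calling count of 1000 SNPs. At this count the first interval of chromosome 6 is the longest, at 20 Mb, and its windows are mostly under 2000 SNPs, whereas 9 of 12 windows of the chromosome 10 interval and 4 of 5 of the *Tpd2* interval reach 2000.

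The *Tpd2* interval is the middle one of chromosome 6, from 94000001 to 99000000. The name here means this interval of SNP counts. By genetic mapping the study placed *Tpd2* in a shorter interval on the long arm of chromosome 6. With windows called at 1000 SNPs it was the shortest of the 4 and had the highest mean per window. Neither rank held in every setting, since at a calling count of 500 its mean (2659) was below that of chromosome 10 (2733), and with no gap joined the last interval of chromosome 6 was shorter (4 Mb). Its 5 windows held 1630, 3321, 3258, 4233 and 2752 SNPs along the chromosome, and the next window, from 99000001 to 100000000, held 759. They averaged 3039 ± 951 SNPs (the SD is that among 5 neighbouring windows, not among replicates), or 1 SNP every 329 bp. The window from 97000001 to 98000000, with 4233 SNPs (exact 95% Poisson interval 4106 to 4362, counting error only), had rank 13 among all 2127 windows, with 1 SNP every 236 bp. The highest counts thus lay inside the interval, and both outer windows of the raised stretch were lower. The window at the left edge held 49.1% of the count of its inner neighbour, and that at the right edge 27.6%. Outside it the counts were 0 and then 1 SNP on the left, and 0 and then 1 on the right, so that the change from introgressed to W22-like sequence fell within a single window on either side. If each edge window holds 1 break, the introgressed piece is between 4 and 6 Mb long. The study labels *Tpd2* and *Rdm1* with the position of a 1-Mb interval on chromosome 6, and the assembly of that position is not stated. Read as Mb of W22, that label falls in the window from 98000001 to 99000000, with 2752 SNPs (2650 to 2857), the last called window of the interval.

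The first interval of chromosome 6 ran from 5000001 to 25000000, and its 20 called windows followed each other without a gap. It was 4 times as long as the *Tpd2* interval but had 0.538 times its mean count. The lowest, median and highest windows held 1023, 1528 and 3166 SNPs, with a mean of 1634 ± 542 (SD over 20 windows), or 1 SNP every 612 bp. Most of its windows thus held fewer SNPs than the lowest window of the *Tpd2* interval. Of the 20 windows, 10 held fewer than 1500 SNPs, 16 fewer than 2000 and 1 at least 3000. The peak of 3166 lay in the window from 18000001 to 19000000 and was followed by 2275, and a second rise of 2357 lay in the window from 10000001 to 11000000, between windows of 1401 and 1129. The 10 windows up to 15000000 averaged 1516 SNPs and the 10 after it 1752, a ratio of 1.16 that was not tested. Counts moved irregularly along the interval, and the correlation of neighbouring windows was 0.14 over 19 neighbouring pairs, which share a chromosome and most of their values with other pairs.

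The ends of the first interval were unlike each other. On the left, the window from 4000001 to 5000000 held 157 SNPs, 9.87% of its inner neighbour's 1590, and the windows before it held 2 and 4. On the right, the window from 24000001 to 25000000 still held 1466 SNPs, 82.3% of its inner neighbour, and the next held 1 and then 4. The change was therefore within a window on the left. On the right the count does not tell whether it lay inside the last window or at its boundary. Windows of the interval ranged from 1023 to 3166 SNPs. The start of the chromosome was W22-like, as the 4 windows up to 4000000 held 3, 2, 4 and 2 SNPs. The study's position label for *Rgd1* and *Ago1a*, read as Mb of W22, falls in the window from 3000001 to 4000000, with 2 SNPs (exact 95% Poisson interval 0.242 to 7.22). The raised stretch begins only in the next window, so with that reading the label lies outside it, and with another assembly or rounding it may not.

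The last interval of chromosome 6 ran from 160000001 to 166000000, 6 Mb of which 5 windows were called. Along the chromosome its windows held 1053, 3301, 1817, 3341, 2 and 1178 SNPs, and the next window held 441. It was the most uneven of the 4 intervals, with a mean of 1782 ± 1327 SNPs (SD over 6 windows) and a range of 2 to 3341. The window from 164000001 to 165000000, with 2 SNPs (0.242 to 7.22), was at the level of W22-like windows while its neighbours held 3341 and 1178. It was the only window of a W22-like count inside an interval on these chromosomes. Without it the mean over called windows was 2138 ± 1118 (SD over 5 windows), and with no gap joined the interval ended at 164000000 with a mean of 2378 over 4 windows. Since the table gives no depth, few callable bases and few differences cannot be told apart in that window. Beyond the interval, the counts were 3, 15, 1, 0 and 0 in the windows that follow 167000000 up to the chromosome's end at 171602414. The window of 15 SNPs, from 168000001 to 169000000, was the highest low count of chromosome 6. The raised stretch ended 4.60 Mb short of the chromosome's end.

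The interval of chromosome 10 ran from 133000001 to 145000000, and all of its 12 windows were called. It held 32798 SNPs, slightly more than the first interval of chromosome 6 (32680), on 0.6 times its length. Along the chromosome the windows held 2841, 2197, 2344, 1026, 3626, 1745, 1940, 3061, 3989, 3427, 3482 and 3120 SNPs, and the next window, from 145000001 to 146000000, held 396. The mean was 2733 ± 886 (SD over 12 windows), or 1 SNP every 366 bp, and the median 2951. The first 6 windows averaged 2297 SNPs and the last 6 averaged 3170, a ratio of 1.38 that was not tested. The lowest window, from 136000001 to 137000000 with 1026 SNPs, stood next to one of 3626, the largest ratio between neighbours in the interval, 3.53. The highest, from 141000001 to 142000000 with 3989 SNPs (3866 to 4115), had rank 18 among the 2127 windows and is the one that holds the cluster at chr10:141519202-141520086 shown above.

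The left edge of the chromosome 10 interval was the sharpest of the 8 edges in the counts. The 3 windows before it held 0 SNPs each, and the first inside held 2841, more than its inner neighbour's 2197 (129%). On the right, the window of 396 SNPs was 12.7% of its inner neighbour, and beyond it lay 4, 1, 2 and 1 SNPs to the chromosome's end, 3.45 Mb from the raised stretch. The raised stretch therefore did not reach the end of the chromosome, and the same was true of both outer stretches of chromosome 6. The study's label for *Ago1b* and *Ago2b*, read as Mb of W22, falls in the window from 134000001 to 135000000 with 2197 SNPs (2106 to 2291), the second called window of the interval.

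Set side by side, the 4 intervals fell into a denser and a sparser pair by their means, although with a calling count of 2000 the last interval of chromosome 6 (2820) passed that of chromosome 10 (2733), and with one of 500 that of chromosome 10 (2733) passed the *Tpd2* interval (2659). At a calling count of 1000 the *Tpd2* interval had 1.11 times the mean of the chromosome 10 interval, and the range of the 5 *Tpd2* windows (1630 to 4233) overlapped that of the 12 windows of chromosome 10 (1026 to 3989). The *Tpd2* interval had 1.86 times the mean of the first interval and 1.71 times that of the last, or 1.42 times with called windows only. Its range also overlapped theirs, since the first interval reached 3166 and the last 3341. With 1 count per window and no replicate, whether these means differ beyond chance was not tested. Relative to their means the called windows scattered alike in 3 of the intervals, with an SD of 0.313 of the mean in the *Tpd2* interval, 0.332 in the first and 0.324 in that of chromosome 10, against 0.523 in the last. The other 6 intervals of the genome, on chromosomes 2, 3 and 5, had means of 1114 to 3329 SNPs and lengths of 2 to 25 Mb, so both chromosomes lay within the range of the rest in either measure. Among the 50 highest counts of all chromosomes, 4 were in the *Tpd2* interval, 7 in that of chromosome 10, 2 in the last and 1 in the first of chromosome 6.

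Outside the raised stretches, windows under 100 SNPs numbered 139 on chromosome 6 and 137 on chromosome 10. They were close to empty on both, with a median of 1 SNP on chromosome 6 and 2 on chromosome 10. On chromosome 6, 49 of them (35.3%) held no SNP, against 21 (15.3%) on chromosome 10. By this share chromosome 6 had rank 3 of the 10 chromosomes and chromosome 10 was last, and the other 8 lay between 15.5% and 40.1%. The mean was 1.32 ± 1.70 SNPs on chromosome 6 and 2.50 ± 5.26 on chromosome 10 (SD over windows). The other 8 chromosomes had means of 1.03 to 2.63. The higher mean of chromosome 10 rested in part on 3 windows, and without them it was 1.79 ± 1.38, with a maximum of 7.

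**Figure D3:**
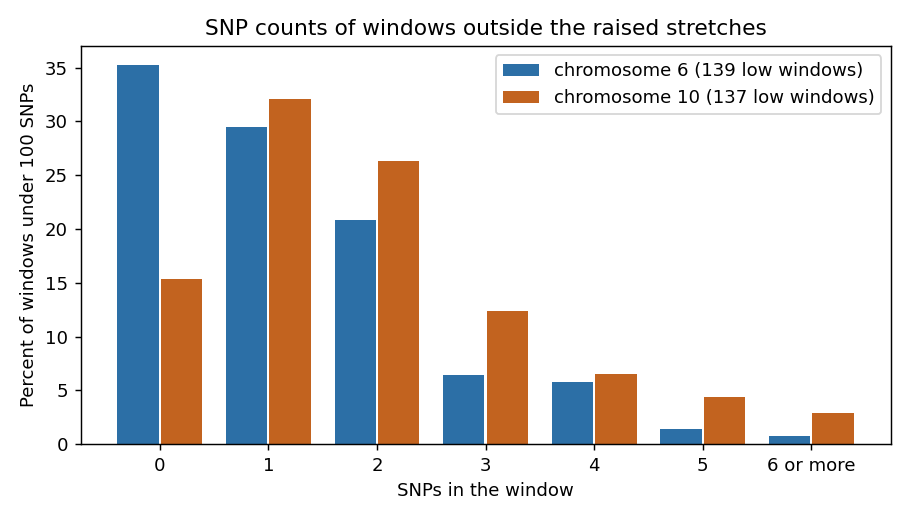
Percent of the windows under 100 SNPs that held 0, 1, 2, 3, 4, 5, or 6 and more SNPs, on chromosome 6 (blue, 139 windows) and chromosome 10 (orange, 137 windows). Windows without a SNP make up 35.3% on chromosome 6 and 15.3% on chromosome 10.

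**Figure D4:**
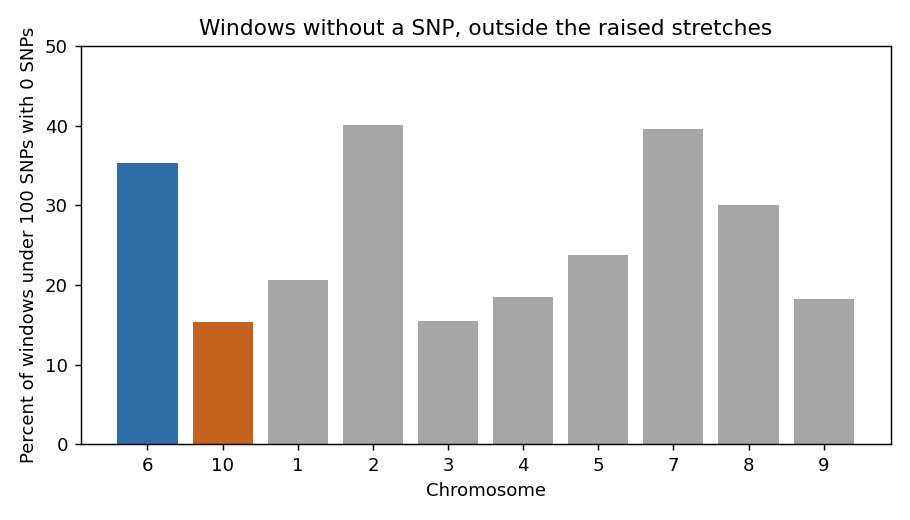
Percent of windows under 100 SNPs that held no SNP, for chromosomes 6 and 10 and then the other 8. Chromosome 6 has 35.3%, chromosome 10 has 15.3%, and the other 8 lie between 15.5% and 40.1%.

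The 3 windows are those from 12000001 to 13000000 (49 SNPs, exact 95% Poisson interval 36.3 to 64.8), from 13000001 to 14000000 (33 SNPs, 22.7 to 46.3) and from 21000001 to 22000000 (21 SNPs, 13.0 to 32.1). They were the only windows of the 10 chromosomes with 20 to 99 SNPs, and held 103 of the 343 SNPs in low windows of chromosome 10. The first of them held 22.7 times the mean of the other low windows of its chromosome, yet was far below the lowest window of the chromosome 10 interval (1026). The neighbouring pair stood between windows of 2 SNPs on either side, and the one at 21000001 between windows of 1 and 2. No window of chromosome 6 was of this kind, where the 5 highest low windows held 15, 5, 5, 4 and 4 SNPs. By position, the low windows of chromosome 6 averaged 2.75 SNPs in the 4 before the first stretch, 1.00 in the 69 that follow it, 1.37 in the 60 between the *Tpd2* and the last stretch and 3.80 in the 5 at the end, the last of these with the window of 15 SNPs. On chromosome 10 they averaged 2.52 in the 133 windows before the stretch and 2.00 in the 4 after it. The longest run of windows without a SNP was 4 windows on chromosome 6, from 54000001 and again from 123000001, and 3 on chromosome 10, from 130000001 up to the edge of the interval.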

How the data were processed

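SNPs of the homozygous *Tpd1;Tpd2* lines were the data used. According to the methods and the submitters' processing notes, the authors trimmed paired reads with Cutadapt 3.1, aligned them to W22 with BWA 0.7.17, kept a mapping quality minimum and removed duplicates with SAMtools 1.10. Freebayes calls passed filters that included an allele frequency of 1. What the authors deposited is the number of such SNPs in each 1-Mb window, a count of sites rather than of reads, without normalization. Depth per library is unknown, so windows with few callable bases cannot be recognised. The 18 bulk segregant pools were not analysed here.

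Counts were used as deposited, with starts written 1-based. Windows of at least 1000 SNPs were called, joined across gaps of at most 2 Mb, and 2 called windows made an interval. Windows of at least 100 SNPs were termed raised and all others low. Shares have 95% Wilson and single windows exact 95% Poisson intervals. No test was made, because there is 1 column of counts. The interval rule was tested on simulated windows. Their counts lay far from the calling count, so borderline windows were not covered. Windows named were all raised windows, their neighbours, the 5 highest low windows of each chromosome, chromosome ends, and windows with a labelled locus or siRNA cluster. Chromosomes, rules and lists were chosen with earlier results of these data known. Alternatives changed the calling count, the gap, the called windows needed, the windows taken as low and the summary of density. Scripts ran in Python 3.11.15 with pandas 2.3.3, NumPy 2.4.6 and SciPy 1.17.1; figures were drawn in matplotlib 3.10.9.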

Additional observations from a re-analysis of the deposited data

How the results depend on the processing

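The number of intervals stayed at 3 on chromosome 6 and 1 on chromosome 10 in every alternative run. At a calling count of 2000 SNPs the length in intervals on chromosome 6 was 12 Mb, with 54.4% of its SNPs inside, because most windows of the first interval were no longer called. That share was 98.7% at 500, 99.4% at 250 and 99.7% at 100 SNPs, and 95.5% with no gap joined. On chromosome 10 it was 99.0% at 250 and at 100 SNPs. The mean per low window of chromosome 10 was 1.79 over windows under 20 SNPs. Of these quantities, the other 55 alternative values stayed within 1.5 times, for numbers and lengths of intervals, or within the counting interval, for shares and means. Of 20 further values for the density of the intervals, 15 left the counting interval and 5 did not. Over the calling counts, medians and windows left out, density lay between 1528 and 2135 SNPs in the first interval, 2659 and 3604 in the *Tpd2* interval, 1498 and 2820 in the last and 2553 and 2951 in that of chromosome 10. At a calling count of 500 the *Tpd2* interval (2659) was below that of chromosome 10 (2733). No paired analysis was possible because the table has 1 column and the pools with replicate numbers were not analysed here. Window edges limit every length to the nearest Mb, and no depth or SNP position was used.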
